A study of Homo sapiens with 2 samples.

Results

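The genes described here encode carriers of the solute carrier (SLC) superfamily that move organic cations, organic anions, peptides, nucleosides and bile salts across cell membranes. They were chosen by name, as all genes whose symbol starts with SLC22A, SLCO, SLC47A, SLC15A, SLC28A, SLC29A or SLC10A, without pseudogenes and antisense transcripts. Of the 18377 genes measured, 51 met this rule, in 7 families. Expression was measured on 2 one-colour arrays, 1 of EBC1 and 1 of EBC1-R. EBC1, the wild type here, is an established line from a human squamous carcinoma of the lung in which the gene for the receptor MET is amplified. EBC1-R was derived from EBC1 by growth in increasing amounts of PHA-665752, an inhibitor of the MET kinase, and was kept in medium with 3 µM of a MET inhibitor. The comparison was made in a search for mechanisms of resistance to that inhibitor. Resistance and the presence of the drug in culture cannot be told apart in this design. Whether EBC1-R is 1 clone was not stated.

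Uptake carriers decide, together with efflux pumps, how much of a drug or metabolite a cell holds. Organic cation and anion transporters of the SLC22 family and the organic anion transporting polypeptides (OATPs, the SLCO genes) are best known from liver, kidney and intestine, where they take drugs, bile salts, steroid conjugates and bilirubin out of blood or filtrate. Nucleoside carriers of SLC28 and SLC29 bring in nucleosides and the nucleoside analogues used against cancer, while some members of these families work on lysosomes rather than at the cell surface.

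Each level below is the deposited value of a gene on 1 array, read as a log2 intensity, and each difference is EBC1-R minus EBC1 in log2 units; pairs of levels give EBC1 first. With 1 array per group there is no replicate error and no test, so all differences are sizes in this pair of arrays. The only internal measure of precision was the agreement of probe sets of the same gene. Over 374 genes with several probe sets and above the level filter set below, their differences had a pooled SD of 0.16. Probe sets share the same 2 arrays, so this SD does not cover variation between cultures or arrays. Levels of different genes were not compared as amounts of transcript, because probes differ in their response. They were used to place genes against a level filter and to find genes of like mean level. A level filter was placed at 7.41, the median over all genes of the higher of the gene's 2 values. No detection calls were used, so a value under this filter may or may not exceed background.

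SLCO1B3 was the 1 member of 51 that differed at least 2-fold, and it was higher in EBC1-R. The share of all genes past that threshold was 1.26% in the higher and 0.887% in the lower direction, so 1 member higher and 0 lower is near the background. SLC10A7, SLC29A3 and SLC22A5 followed with differences between 0.72 and 0.91, which brought the count at 1.5-fold to 4 members higher, beside 4.41% of all genes. SLC10A5 was the 1 member at least 1.5-fold lower, beside 3.16% of all genes. At 0.5 log2 units or more, 5 members were higher and 1 lower, beside 6.03% and 4.36% of all genes. The nearest member outside the 2-fold threshold was SLC10A7, at 1.87-fold.

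Most members differed little. In 40 of the 51 the difference was under 0.3 in size, as it was in 13870 of the 18377 genes. A total of 21 members had a positive difference, 29 a negative one and 1 a difference of 0. The share of positive differences was 41.2%, beside 43.3% of all genes. The median difference was -0.03 over the members and -0.03 over all genes. The 321 other SLC genes had a median of -0.02, with 2 past 2-fold in the higher and 1 in the lower direction. Only 13 members passed the level filter, beside 9189 of the 18377 genes and 148 of the 321 other SLC genes. Of the 13, 7 had a positive difference, and over all genes above the filter 49.6% were positive. The 38 members under the filter differed by -0.22 to 0.58.

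**Figure D1:**
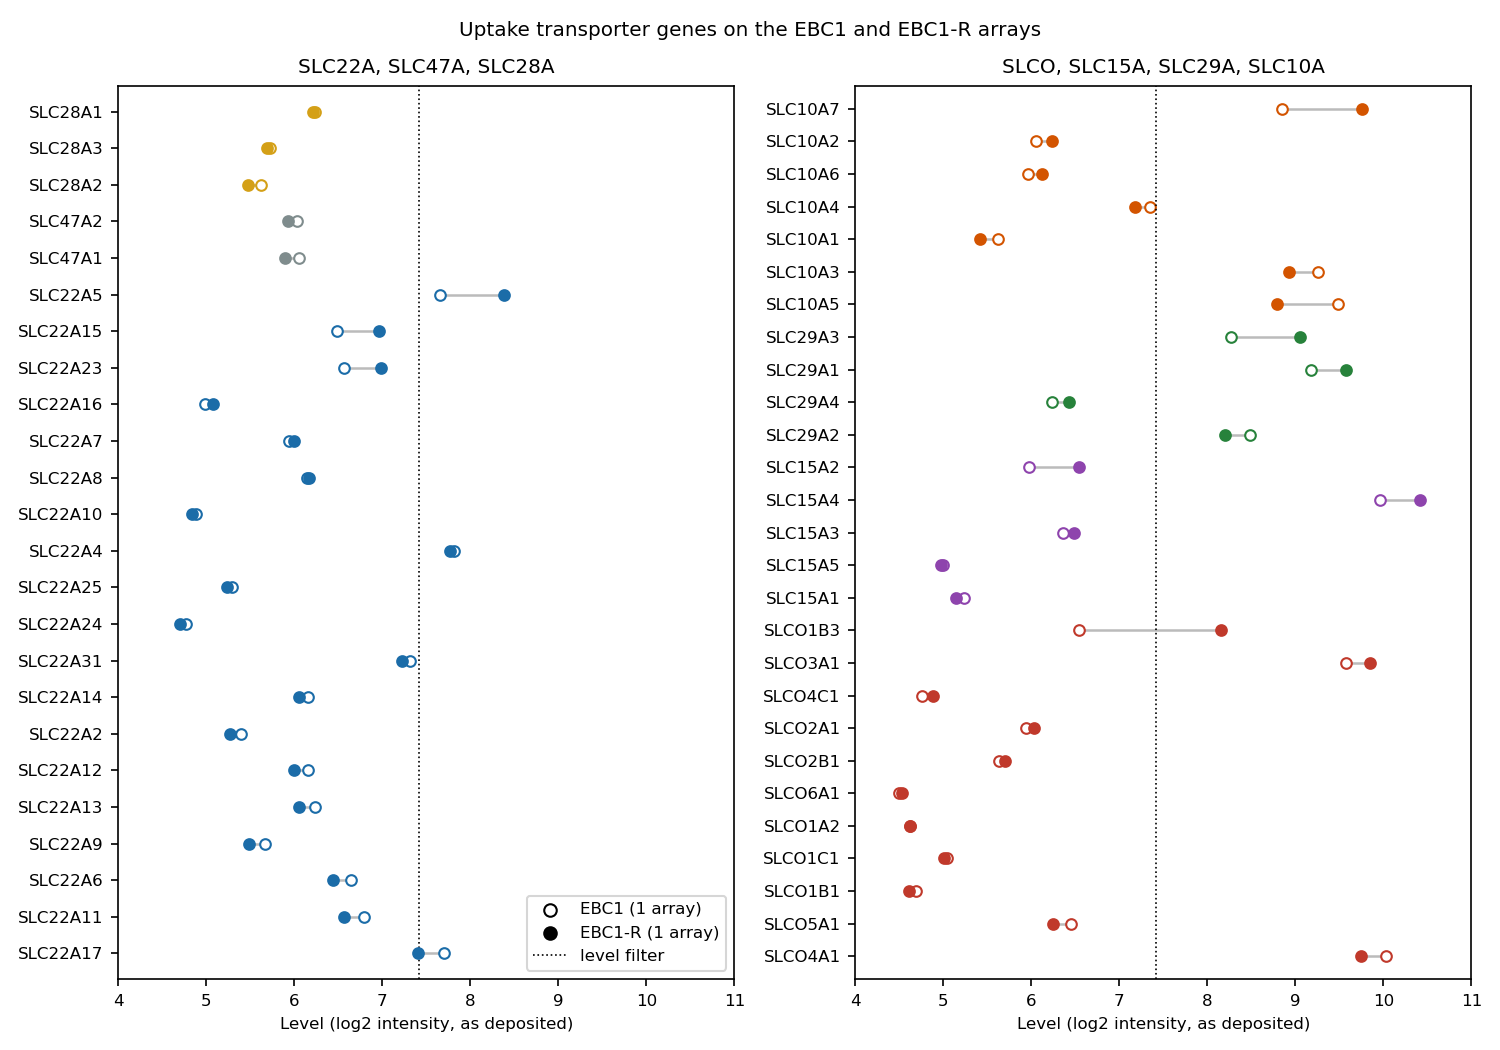
Level of each of the 51 genes (log2 intensity as deposited, horizontal axis) on the EBC1 array (open circles) and the EBC1-R array (filled circles), 1 array each, coloured by family; the dotted line is the level filter of 7.41. SLCO1B3 has the longest line, from 6.54 to 8.16, and most other pairs of circles lie close together, many of them left of the dotted line.

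Among the OATPs, the difference was concentrated in a single gene. SLCO1B3 encodes OATP1B3, which takes up conjugated bilirubin, bile salts and drugs such as methotrexate into hepatocytes. A shortened form of its transcript, started from an internal exon and known as the cancer type, has been described in tumours outside the liver, and the gene's single probe set was not resolved into these forms here. Its level was 6.54 in EBC1 against 8.16 in EBC1-R, a difference of 1.62 or 3.08-fold. The EBC1 value lay under the level filter, so SLCO1B3 passed it through EBC1-R alone. By size of difference it ranked at position 96 of the 18377 genes. Among the 1000 genes with the nearest mean level, 95% of differences lay between -0.58 and 0.90, and 5 genes were at least as far up as SLCO1B3.

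SLCO1B3 lies on chromosome 12 in a run of OATP genes. Among the measured genes it stands between SLCO1C1 and SLCO1B1, with SLCO1A2 beyond. SLCO1B1, the other liver OATP of this subfamily and a close paralog, was at 4.69 in EBC1 against 4.61 in EBC1-R. SLCO1C1, a thyroxine carrier of the brain's vessels, was at 5.04 and 5.01. SLCO1A2, a carrier of broad substrate range, had the identical value of 4.62 on both arrays. The measured gene next to this run, PDE3A, differed by -0.01 on one side and IAPP by -0.07 on the other. No measured gene beside SLCO1B3 shared its difference, and genes of this stretch without a value here are not covered. Cross-hybridisation between paralogs was not tested.

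The sequences upstream of SLCO1B3 and SLCO1B1 are shown because these neighbours among the measured genes share ancestry and arrangement while their values on the arrays differed. They are the 120 bases before the first listed RefSeq start of each gene in GRCh38.p14, both on the plus strand, at chr12:20810585-20810704 for SLCO1B3 and chr12:21131074-21131193 for SLCO1B1. Capitals mark the letters GTTAAT or their reverse complement ATTAAC, the half-site bound by the liver factor HNF1.
SLCO1B3: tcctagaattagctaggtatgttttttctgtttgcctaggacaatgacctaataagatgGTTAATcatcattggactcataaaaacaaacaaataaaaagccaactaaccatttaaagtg
SLCO1B1: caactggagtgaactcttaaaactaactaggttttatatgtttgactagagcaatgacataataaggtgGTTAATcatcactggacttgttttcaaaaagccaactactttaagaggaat
Counted back from -1 at the base before the gene start, the half-site starts at -61 in SLCO1B3 and at -51 in SLCO1B1. Over the 250 bases upstream the pair was 67.8% identical in a global alignment. GTTAAT on either strand occurred in the 250 bases upstream of 6.22% of 27305 genes and of 5 of the 35 members in the promoter table, the others being SLCO1A2, SLC10A2 and SLC22A6. The match describes the letters and not binding, and the start used in EBC1 or EBC1-R was not measured.

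The other OATPs differed by less than 0.3. SLCO3A1, a widely expressed carrier of prostaglandins and thyroxine, was at 9.57 in EBC1 against 9.85 in EBC1-R, a difference of 0.28. SLCO4A1, which carries thyroid hormones and estrone sulfate, went the other way, from 10.03 to 9.75, a difference of -0.28. These were the 2 OATP genes above the level filter on both arrays. Under the filter on both were SLCO1A2, SLCO1B1, SLCO1C1, the prostaglandin transporter SLCO2A1, SLCO2B1, SLCO4C1, SLCO5A1 and the testis gene SLCO6A1, with differences from -0.21 for SLCO5A1 to 0.12 for SLCO4C1. SLCO4C1 was the 1 member with more than 1 probe set, and these differed by -0.05 and 0.30. The median difference of the 11 OATP genes was 0.04.

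**Figure D2:**
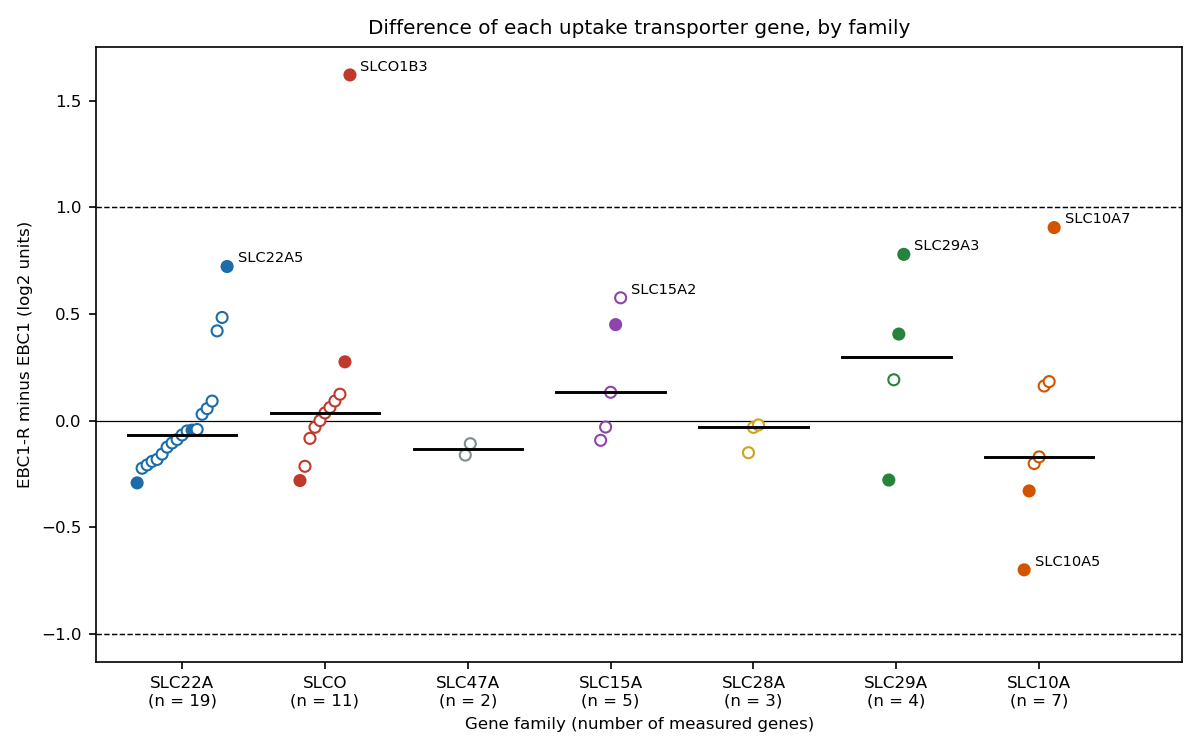
Difference of each gene (EBC1-R minus EBC1, log2 units, vertical axis) by family, with the number of measured genes; filled points passed the level filter, open points did not, black bars are family medians and dashed lines mark 2-fold. SLCO1B3 at 1.62 is the only point beyond a dashed line, and the family medians lie between -0.17 for SLC10A and 0.30 for SLC29A.

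In the SLC22 family the carnitine carrier gene had the highest difference, within the spread of genes of like level. SLC22A5 encodes OCTN2, the sodium-coupled carnitine transporter that supplies fatty acid oxidation. Its level was 7.66 in EBC1 against 8.38 in EBC1-R, a difference of 0.72 or 1.65-fold. Among the 1000 genes of nearest mean level, 95% of differences lay between -0.74 and 0.92, a range that contains SLC22A5, and 46 were at least as high. SLC22A4, next to it on chromosome 5, encodes OCTN1, a carrier of the antioxidant ergothioneine. It was at 7.82 in EBC1 against 7.77 in EBC1-R, a difference of -0.04.

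The sequences upstream of SLC22A5 and SLC22A4 are given for the same reason, as adjacent paralogs with unequal differences. They are the 120 bases before each RefSeq start in GRCh38.p14 on the plus strand, chr5:132369590-132369709 for SLC22A5 and chr5:132294274-132294393 for SLC22A4. Capitals mark GGGCGG or its reverse complement CCGCCC, the GC box bound by Sp1.
SLC22A5: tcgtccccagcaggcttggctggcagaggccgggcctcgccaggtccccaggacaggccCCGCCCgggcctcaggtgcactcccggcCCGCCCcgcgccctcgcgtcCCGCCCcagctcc
SLC22A4: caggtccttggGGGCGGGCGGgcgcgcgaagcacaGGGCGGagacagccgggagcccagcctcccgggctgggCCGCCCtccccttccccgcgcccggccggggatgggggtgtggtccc
The stretches shown hold 3 GC boxes in SLC22A5 and 4 in SLC22A4, 2 of the latter overlapping each other. G and C made up 74% of the 250 upstream bases of SLC22A5 and 76% of those of SLC22A4, against 28.4% for SLCO1B3 and 29.2% for SLCO1B1. GC boxes on either strand occurred in the 250 bases upstream of 42.3% of the 27305 genes in the promoter table and of 15 of its 35 members, so the letters are common.

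The remaining SLC22 genes were under the level filter or differed little. SLC22A17, described as a receptor for the iron-binding protein lipocalin 2, was at 7.70 in EBC1 against 7.41 in EBC1-R, a difference of -0.29 and the lowest of the family; it passed the filter through EBC1 alone. SLC22A15, a zwitterion carrier, had the highest difference among those under the filter, 0.48, from 6.48 to 6.96. SLC22A23, whose substrates are not established, had 0.42. The organic cation carrier of the kidney, SLC22A2, was at 5.40 and 5.27, and SLC22A16, which carries carnitine and doxorubicin, at 4.98 and 5.08. SLC22A14 and SLC22A31 differed by -0.11 and -0.09.

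None of the 10 organic anion transporters of the family passed the level filter, and 8 of them had a negative difference. These were SLC22A6 and SLC22A8 (OAT1 and OAT3 of the kidney), SLC22A7 (OAT2), SLC22A9, SLC22A10, SLC22A11, the urate transporter SLC22A12, SLC22A13, SLC22A24 and SLC22A25. Their differences ran from -0.22 for SLC22A11 to 0.06 for SLC22A7, with a median of -0.11. Of all genes under the filter, 5588 of 9188 had a negative difference as well. After a trend on intensity was removed the median of all 19 SLC22 genes was -0.05 in place of -0.07.

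SLC47A1 and SLC47A2, the MATE proton antiporters that export organic cations into urine and bile, were at 6.05 and 6.04 in EBC1 against 5.89 and 5.93 in EBC1-R. Both lay under the filter on both arrays.

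Of the 5 peptide transporter genes, 3 had a positive difference and 1 passed the level filter. SLC15A4, a histidine and peptide carrier of the endolysosome that takes part in innate sensing, was at 9.96 in EBC1 against 10.42 in EBC1-R, a difference of 0.45 or 1.37-fold. SLC15A2 encodes PEPT2, the high-affinity peptide carrier of kidney and airway epithelium, and was at 5.97 and 6.55, a difference of 0.58 under the level filter. Among the 1000 genes nearest to it in mean level 31 were at least as high. SLC15A3, also endolysosomal, differed by 0.13. SLC15A1, the intestinal PEPT1, was at 5.24 and 5.14, and SLC15A5 differed by -0.03.

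Of the nucleoside carriers, only equilibrative transporters passed the level filter. SLC29A1 encodes ENT1, the main surface route for gemcitabine and cytarabine, and was at 9.17 in EBC1 against 9.58 in EBC1-R, a difference of 0.41 or 1.32-fold. SLC29A2 encodes ENT2, which also carries nucleobases, and was lower, at 8.48 and 8.20, a difference of -0.28. SLC29A3 encodes ENT3, which releases nucleosides from lysosomes, and was at 8.27 and 9.05, a difference of 0.78 or 1.72-fold. SLC29A4, a monoamine carrier, differed by 0.19 under the filter. The 3 sodium-coupled carriers SLC28A1, SLC28A2 and SLC28A3 lay under the filter on both arrays with differences from -0.15 to -0.02.

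The SLC10 family held both the second highest and the lowest difference of all members. SLC10A7, which despite its family name has no known bile acid transport and is needed for normal skeletal development, was at 8.85 in EBC1 against 9.75 in EBC1-R, a difference of 0.91 or 1.87-fold. Among the 1000 genes of nearest mean level 95% of differences lay between -0.85 and 0.75, and 21 were at least as high. SLC10A5, an orphan carrier, was at 9.49 and 8.79, a difference of -0.70 or 1.62-fold lower, inside its range of -0.88 to 0.84. SLC10A3, also an orphan, was at 9.25 and 8.92, a difference of -0.33. The bile salt carriers of liver and ileum, SLC10A1 and SLC10A2, were at 5.62 and 6.06 in EBC1 against 5.42 and 6.24 in EBC1-R. SLC10A4 and the steroid sulfate carrier SLC10A6 differed by -0.17 and 0.16. SLCO1B3 and SLC10A7 were the 2 of 51 members outside the range of their neighbours in level, which leaves out 5% of those neighbours by its construction.

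**Figure D3:**
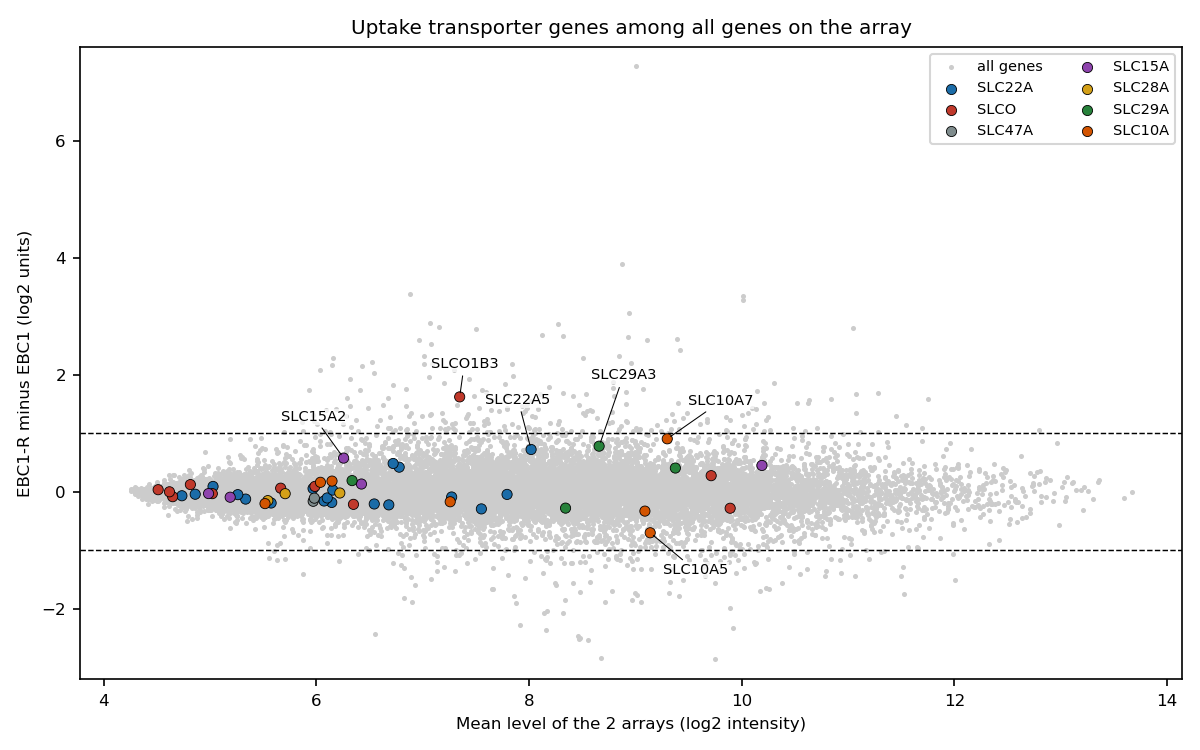
Difference (EBC1-R minus EBC1, log2 units, vertical axis) against the mean level of the 2 arrays (log2 intensity, horizontal axis) for all 18377 genes in grey and for the 51 members coloured by family; dashed lines mark 2-fold. Members other than SLCO1B3 lie between the dashed lines within the grey cloud, which is narrower at low levels.

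Members grouped by the place they work, a grouping made after their values were seen, showed these values. The 3 endolysosomal carriers SLC29A3, SLC15A4 and SLC15A3 all had positive differences, 0.78, 0.45 and 0.13. Of 6 carriers known for uptake at the blood side of hepatocytes (SLCO1B1, SLCO1B3, SLCO2B1, SLC10A1, SLC22A7 and SLC22A9), SLCO1B3 differed by 1.62 and the other members by -0.20 to 0.06. None of 9 carriers known for drug handling in the kidney (SLC22A2, SLC22A6, SLC22A8, SLC22A11, SLC22A12, SLCO4C1, SLC47A1, SLC47A2 and SLC15A2) passed the level filter, and their differences ran from -0.22 for SLC22A11 to 0.58 for SLC15A2 with a median of -0.12.

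A total of 18 members stood next to another member among the measured genes, in 6 runs. In the largest run, 6 SLC22 genes on chromosome 11 from SLC22A6 to SLC22A9, differences lay between -0.21 and 0.03. The pair SLC22A11 and SLC22A12 differed by -0.22 and -0.16, the pair SLC22A13 and SLC22A14 by -0.18 and -0.11, and the pair SLCO4C1 and SLCO6A1 by 0.12 and 0.04. The runs around SLCO1B3 and SLC22A5 were the 2 in which a member differed by 0.5 or more, and in each it was 1 gene.

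The 4 measured genes on each side of the 6 members that differed by 0.5 or more were read in RefSeq order, a view chosen after the values were seen. SLCO1B3 and SLC10A7 stood alone, with the nearest genes of SLC10A7, LSM6 and POU4F2, at -0.10 and -0.13. Near SLC22A5 the non-coding gene CARINH differed by 0.55, the interferon regulatory factor gene IRF1 by 0.81 and the collagen prolyl hydroxylase gene P4HA2 by 1.35, while PDLIM4 between P4HA2 and SLC22A4 differed by 0.05. Near SLC29A3 the immune checkpoint gene VSIR differed by 1.15 and PSAP, the precursor of lysosomal saposins, by 0.50, but UNC5B and CDH23 directly beside it by -0.12 and -0.11. On one side of SLC15A2, EAF2 next to it differed by 0.71, and IQCB1 and GOLGB1 beyond by 0.36 and 0.40. ILDR1, directly on the other side, differed by -0.10. Next to SLC10A5, IMPA1 and ZFAND1 differed by 0.02 and -0.14, and CHMP4C beyond ZFAND1 by -0.35.

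**Figure D4:**
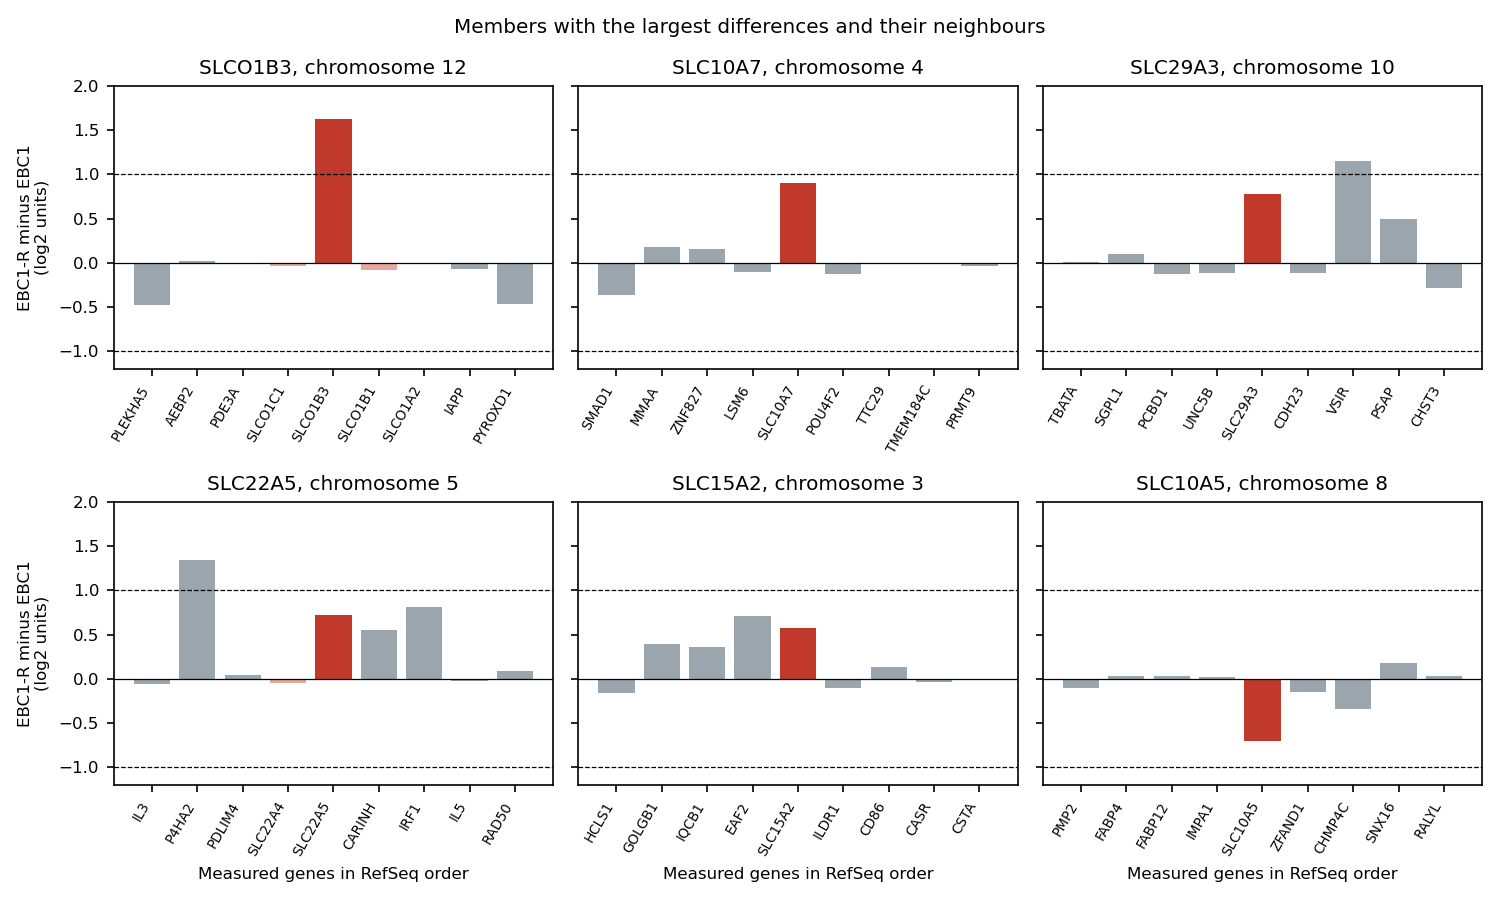
Difference (EBC1-R minus EBC1, log2 units, vertical axis) of the 6 members that differed by 0.5 or more (dark red) and of the 4 measured genes on each side in RefSeq order (grey, or pale red for other members); dashed lines mark 2-fold. SLCO1B3 and SLC10A7 stand well above the genes beside them, while IRF1 at 0.81 and P4HA2 at 1.35 stand near SLC22A5.

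Genes that work with these carriers were read from 7 lists with 97 measured genes, of which 3 differed at least 2-fold, beside 2.14% of all genes in either direction, which is near the background. The 3 are described with the largest differences of each list. The nucleoside salvage list had 24 measured genes, with 1 past 2-fold in each direction and a median of -0.20. CDA, the cytidine deaminase that inactivates gemcitabine and cytarabine, was at 9.35 in EBC1 against 10.66 in EBC1-R, 2.49-fold higher. NT5E, the surface enzyme that makes adenosine from AMP, was at 11.46 and 10.12, 2.55-fold lower. RRM2 of ribonucleotide reductase differed by -0.94 and the mitochondrial thymidine kinase TK2 by -0.74.

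Among 11 genes of carnitine synthesis and use, the peroxisomal acyltransferase CROT was at 6.78 in EBC1 against 9.45 in EBC1-R, 6.38-fold higher, with the EBC1 value under the level filter. CROT stands close to ABCB1 on chromosome 7, the gene with the highest difference of all, at 5.37 in EBC1 against 12.65 in EBC1-R. A link between these differences was not tested. The mitochondrial carnitine carrier SLC25A20 differed by 0.21, TMLHE of carnitine synthesis by 0.15 and ACADM of fatty acid oxidation by -0.09. SLC25A20 and TMLHE lay under the level filter on both arrays. The list's median was -0.01.

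No gene of the other 5 lists differed 2-fold. In the list of organic anion exporters and bile salt genes (12 measured, median -0.01), the conjugate exporters ABCC4, ABCC3 and ABCC1 differed by 0.91, 0.78 and 0.32, and SLC51A by -0.19. Among 12 regulators that sense xenobiotics and bile acids (median 0.14), ARNT, the partner of AHR and HIF1A, differed by 0.70, PPARA by 0.53, CEBPB by -0.40 and AHR by 0.31. Among 8 scaffold and ion-gradient genes (median -0.11), the scaffold NHERF1, which anchors transporters at the apical membrane, differed by -0.86, or 1.81-fold lower in EBC1-R. The pump subunit ATP1B1 differed by 0.46, NHERF2 by -0.37 and DPP4 by 0.30. Of 18 genes for thyroid hormone, steroid and prostaglandin handling (median -0.02), SULT2B1 differed by -0.52, HSD17B1 by -0.47, STS by 0.47 and THRB by 0.47. Of 12 genes for peptide sensing and cleavage (median 0.02), TLR9 differed by -0.26, PEPD by 0.23, CNDP2 by -0.19 and LAP3 by 0.17. Of the genes named from these 5 lists, SLC51A, DPP4, SULT2B1, HSD17B1, STS, THRB and TLR9 lay under the level filter on both arrays. ABCC4 and PPARA passed it through EBC1-R alone.

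Markers of tissues in which these carriers are best known were checked on both arrays. The level filter was passed by 0 of 8 kidney tubule markers, 0 of 8 enterocyte markers and 2 of 9 hepatocyte markers (SERPINA1 and CPS1), and no marker of these lists differed 2-fold. Over all genes, 9189 of 18377 passed the filter. Of 9 epithelial and squamous markers 6 passed, with the simple-epithelial keratins KRT19, KRT8 and KRT18 at 12.77, 12.83 and 12.26 in EBC1 and differing by -0.89, -0.83 and -0.78, whereas CDH1, MET and EPCAM differed by 0.10, 0.04 and -0.08. The 3 measured squamous markers were under the filter on both arrays, KRT5 at 6.17 and 6.11, KRT14 at 7.26 and 6.97, and SOX2 at 6.53 and 6.39, so whether these defining genes exceeded background is not known. Leukocyte, fibroblast and endothelial markers passed in 1 of 8, 1 of 7 and 0 of 6 genes, and none differed 2-fold.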

How the data were processed

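Levels came from 1 array of EBC1 and 1 of EBC1-R. The deposited table has a single value per probe set on each array, read as log2 intensity from the range of 4.21 to 14.2; how the authors computed it is not stated in the sources. The column medians, 6.73 and 6.71, were nearly equal, so a change shared by most genes would not show. Per the labels' protocols the RNA was labelled with a whole-transcript kit; the array model named there does not match the 28869 deposited probe sets, which matched the annotation of another array. Of these, 19310 had 1 gene symbol and were averaged per gene, 1752 had several and 7807 none; none with several named a member. All 51 member symbols matched RefSeq (GRCh38.p14), used for names, gene order and promoters. With 1 array per group no test was run, and the number of arrays limits the precision. By rule both values were printed for members above the level filter or differing by 0.5 or more, the others by range, and the 4 largest differences per list; both values of further members were added after they were seen. The members and lists were chosen with earlier results of these data known. Alternatives were quantile normalization, centring, lowess (span 0.2), a pseudocount of 16, the brightest probe set, the level filter, and 1.5-fold and 3-fold thresholds. Counting was tested on simulated data. Python 3.11.15, pandas 2.3.3, statsmodels 0.14.6 and Biopython 1.88 were used.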

Additional observations from a re-analysis of the deposited data

How the results depend on the processing

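All 14 members with a difference of 0.5 or more or above the level filter kept their sign under quantile normalization and lowess. Centring, the pseudocount and the brightest probe set could not change a sign here. Each of the 14 has 1 probe set, and a pseudocount keeps the order of 2 levels. Centring removes a median of -0.03, smaller in size than the smallest of these differences, -0.04 for SLC22A4. Under all of these alternatives the 14 moved by less than the probe set SD of 0.16. SLCO1B3 ranged from 1.47 to 1.65. At a 1.5-fold threshold 4 members were higher and 1 lower, and 10 of the 97 partner genes differed in either direction. The background for this threshold, taken from the 18377 measured genes, was 4.41% upward and 3.16% downward. At 3-fold 1 partner gene differed, and no background was computed for that threshold. Restricted to genes above the level filter, 7 of 13 members were positive and their median was 0.28, but 0.12 without SLCO1B3, which passed through EBC1-R alone, beside -0.002 over all genes above the filter. The median there was -0.33 for SLC10A, 0.45 for SLC15A (SLC15A4 alone) and 0.28 for the 3 SLCO genes, but -0.003 for these without SLCO1B3; a gene can pass this filter through 1 array, so these medians support nothing. SLC47A and SLC28A had no member there. The medians of all members and of SLC28A, both near 0, changed sign under 2 alternatives each. The alternatives for the partner genes were chosen after seeing the data. No paired analysis was possible because each group has 1 array. Low intensities limit what can be read for the 38 members under the filter.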

Other observations

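Transcripts that the naming rule leaves out were also measured. The pseudogene SLC22A20P was at 7.61 in EBC1 against 7.48 in EBC1-R, a difference of -0.12. The antisense transcript SLCO4A1-AS1 was at 7.09 and 7.13, a difference of 0.05, beside -0.28 for SLCO4A1 on the opposite strand.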
